A study of Mus musculus with 2 samples.

Results

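Interferon gamma inducible GTPases are proteins that bind and hydrolyse GTP and that cells make in large amounts after exposure to interferon gamma. The set described here held 10 of the 32285 genes in the deposited count matrices, namely Gm4951, Iigp1, Irgm1, Irgm2, Igtp, Tgtp1, Tgtp2, Gbp2, Gbp5 and Ifi47. They were taken by gene symbol and were selected on earlier values of these same data, in which Gm4951 and other interferon gamma induced genes differed between the libraries in macrophages. The levels and ratios below are therefore a description, and each group held 1 library, so that no test of a difference between groups was possible and no p-value is given.

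The cells were mouse colon lamina propria cells, which the labels describe as cd11b+, measured by 3′ single-cell RNA sequencing. The study compared Runx3 fl/fl-Lyz2-Cre mice, in which Cre is driven by the Lyz2 gene of myeloid cells and is not limited to macrophages, with Runx3 fl/fl control littermates, so that both groups carried the floxed Runx3 allele. The 2 libraries bear the titles Runx3_fl and Runx3, which leave the presence of Cre unstated, and for that reason they are called by those titles with no genotype given. Per the study's legends each library was a pool of adult male mice with no treatment stated, so mice cannot be told apart within a library.

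Several properties of the libraries bear on all values below. After the study's own limits of 200 to 6000 genes and at most 15% mitochondrial UMIs, 11885 of 12968 and 8167 of 8953 cells remained, with medians of 9573 and 5731 UMIs per cell in the libraries labelled Runx3_fl and Runx3. A UMI is a molecular barcode that counts a captured RNA molecule once, and CPM below is UMIs of a gene per 1000000 UMIs of all genes in the same cells. The libraries shared 37 barcodes, 27 of them among the kept cells. Xist, the RNA of the inactive X chromosome, was at 212 CPM in one library, Runx3_fl, and at 0.183 CPM from 12 UMIs in the other, which goes against male mice in both. Macrophages of the library labelled Runx3 had more Runx3 RNA than those of the other library, at 245 against 157 CPM, so the targeted gene gives no check of the titles. Itgam, which encodes CD11b, had at least 1 UMI in 44.6% and 38.2% of the kept cells, and many cells carried T cell or B cell genes.

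The family has branches with different roles. In infected cells, GTPases of the IRG branch with a GKS motif, which include Iigp1, Tgtp1, Tgtp2 and Ifi47, load onto the vacuole in which a parasite such as Toxoplasma lives, and those with a GMS motif, Irgm1, Irgm2 and Igtp, keep them inactive on the cell's own membranes. Guanylate-binding proteins such as Gbp2 and Gbp5 gather at such vacuoles and at bacteria and help to set off inflammasomes. Interferon gamma is made mainly by NK cells and T cells, acts through the receptor chains Ifngr1 and Ifngr2, and is a classical activator of macrophages.

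In the mm10 mouse genome, as placed by the GENCODE M21 annotation, the GTPase genes lie in 4 neighbourhoods. Irgm1 (ENSMUSG00000046879, chr11:48861968-48871683, minus strand), Tgtp1 (ENSMUSG00000078922, chr11:48985327-48994172, minus strand), Tgtp2 (ENSMUSG00000078921, chr11:49057194-49064206, minus strand) and Ifi47 (ENSMUSG00000078920, chr11:49076587-49096974, plus strand) form one. Igtp (ENSMUSG00000078853, chr11:58199556-58207591, plus strand) and Irgm2 (ENSMUSG00000069874, chr11:58199618-58222782, plus strand) overlap on the same strand and share 162 exon bases. Gbp5 (ENSMUSG00000105504, chr3:142493978-142522344, plus strand) and Gbp2 (ENSMUSG00000028270, chr3:142620602-142638008, plus strand) are neighbours. Gm4951 (ENSMUSG00000073555, chr18:60212080-60247820, plus strand) and Iigp1 (ENSMUSG00000054072, chr18:60376027-60392634, plus strand) form the last, and all 10 genes are annotated as protein coding.

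Some of the genes resemble each other closely enough to share reads. The longest transcripts of Tgtp1 and Tgtp2 were 99.8% identical over 2810 aligned bases, those of Iigp1 and Gm4951 were 90.1% identical over 2294 bases, and those of Igtp and Irgm2 were 84.0% identical over 1383 bases. On the same strand, Tgtp1 shares 223 exon bases with Gm12185 and Ifi47 shares 111 with Olfr56. Values of Tgtp1 and Tgtp2 taken apart are therefore uncertain, and their sum is given where either is named as differing.

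Cells were placed in a class by 1 UMI of the gate genes, Csf1r and C1qa together for macrophages, Flt3 for conventional dendritic cells (cDC), Csf3r, Ncr1 for NK cells, Cd3e for T cells and Cd79a, and a cell that passed the gates of 2 or more classes was left out. The numbers of cells in the libraries labelled Runx3_fl and Runx3 were 254 and 276 macrophages, 910 and 455 cDC, 1378 and 1448 Csf3r-gated cells, 1294 and 101 NK cells, 2838 and 389 T cells, and 353 and 1243 Cd79a-gated cells. Another 3690 and 2656 cells passed no gate, and 1168 and 1599 passed at least 2. All markers of a class were highest in that class in 10 of the 12 combinations of class and library. The exceptions were in the library labelled Runx3, where 7 of 8 cDC markers and 5 of 6 neutrophil markers were.

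The Csf3r gate did not hold neutrophils alone, so it is called by its gene. Its leading genes included the neutrophil genes S100a8 and S100a9 in both libraries, but otherwise differed. In the library labelled Runx3 they included Retnlg and the neutrophil granule genes Camp, Ngp, Lcn2, Ltf and Elane, and in the other library Il1f9, G0s2 and Hdc. The macrophage markers summed to 45.4% and 36.8% of their level in the macrophage class, and 368 of 719 and 672 of 1083 cells with both macrophage gate genes also carried Csf3r. The Cd79a gate was led by genes that included the plasma cell genes Jchain, Igha and Mzb1 in the library labelled Runx3_fl and the B cell genes Ebf1, Pax5 and Ms4a1 in the library labelled Runx3. In macrophages of the library labelled Runx3_fl the leading gene was Zg16, a goblet cell product.

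The library labelled Runx3_fl gave 108454 UMIs of the 10 genes over its kept cells, or 795 CPM (791 to 800, 95% Poisson interval), and the library labelled Runx3 gave 41125, or 627 CPM (621 to 633). These intervals, and all others below, cover counting error only and not the spread between mice. The summed level was highest in Csf3r-gated cells of the library labelled Runx3_fl, at 2362 CPM, and lowest in NK cells of the same library, at 153 CPM. Between these, macrophages were at 1516 CPM, cDC at 888, Cd79a-gated cells at 483 and T cells at 352 in the library labelled Runx3_fl. In the library labelled Runx3, Csf3r-gated cells were at 909 CPM, macrophages at 729, cDC at 625, T cells at 510, NK cells at 222 and Cd79a-gated cells at 194. Counting intervals of neighbours in this order overlapped for Csf3r-gated cells of the library labelled Runx3 (892 to 927) and cDC of the library labelled Runx3_fl (873 to 903), for T cells of the former (485 to 535) and Cd79a-gated cells of the latter (466 to 500), and for NK cells (194 to 253) and Cd79a-gated cells (185 to 204) of the library labelled Runx3. The plot of summed levels shows them beside Ifng.

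**Figure D1:**
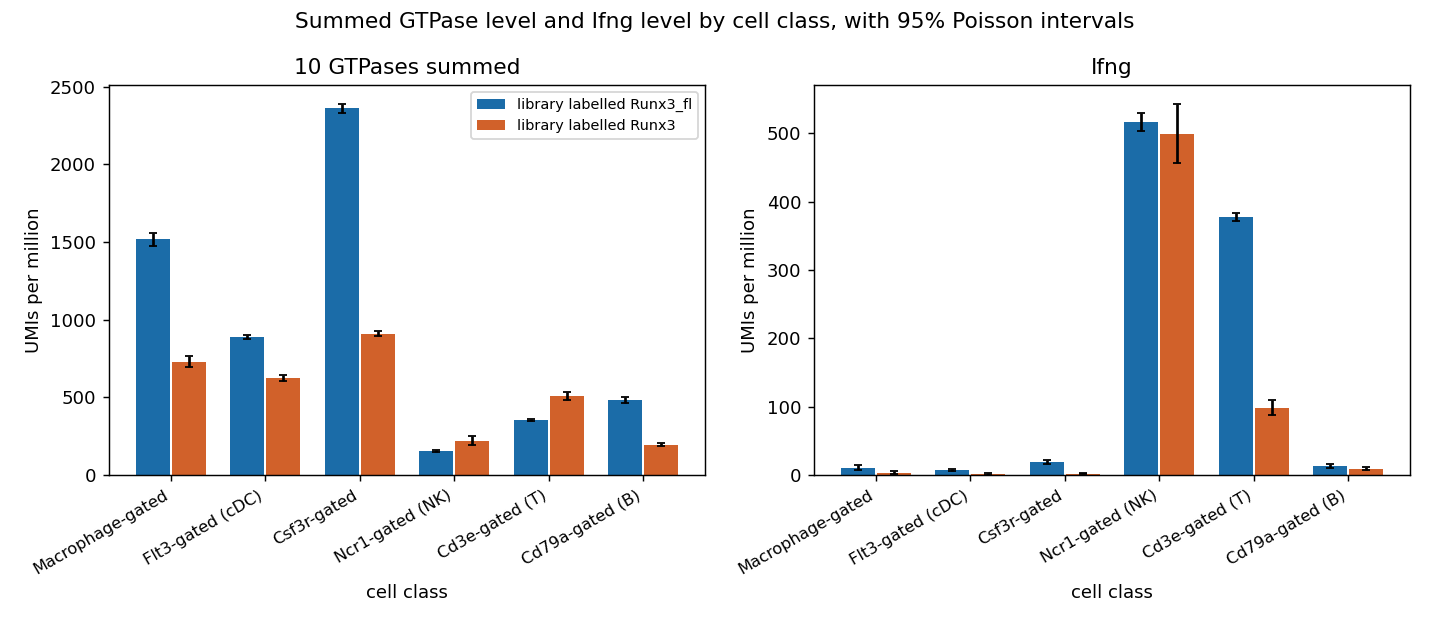
Levels of the 10 GTPases summed (left) and of Ifng (right) in CPM, for 6 cell classes in the library labelled Runx3_fl (blue) and the library labelled Runx3 (orange), with 95% Poisson intervals as error bars. The summed level was 1516 and 729 in macrophages and 352 and 510 in T cells, and Ifng was 517 and 499 in NK cells and 378 and 98.0 in T cells.

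In macrophages the summed level was lower in the library labelled Runx3, by −1.05 on the log2 scale (−1.14 to −0.97), and single genes ranged from −2.41 to 0.81. Ratios are log2 of the CPM in the library labelled Runx3 over that in the library labelled Runx3_fl, with 1 CPM added to each, and their intervals come from the UMI counts. Past 1 log2 unit lower stood 4 of the 10 genes, where 3.53% of the 11556 genes with at least 10 UMIs did. Since the set was chosen for this contrast, nothing is read from that count. The median ratio of the 10 genes was −0.31, and that of all genes was 0.24, so a gene at 0 on this scale lay below the typical gene.

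Gm4951, an IRG gene, stood at 215 CPM from 684 UMIs in macrophages of the library labelled Runx3_fl. With 39.7 CPM from 88 UMIs in the other library, its log2 ratio was −2.41 (−2.78 to −2.12). Gbp5, a promoter of NLRP3 inflammasome assembly, was at 184 and 53.2 CPM, a log2 ratio of −1.77 (−2.08 to −1.50). Iigp1 was at 168 and 66.3 CPM, a log2 ratio of −1.33 (−1.61 to −1.07). For Gm4951, Gbp5 and Iigp1 the counting intervals of the libraries were apart. Gbp2, the GTPase with the most UMIs in macrophages, was at 672 and 283 CPM, a log2 ratio of −1.24 (−1.38 to −1.12). Gm4951 was at −3.05 with at most 4000 genes per cell, and Gbp2 at −1.90 with thinned cells.

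The regulators with a GMS motif and Ifi47 were at similar levels or higher in macrophages of the library labelled Runx3. Irgm1 was at 97.0 and 84.8 CPM, a log2 ratio of −0.19 (−0.46 to 0.07), and Ifi47 was at 108 and 98.3 CPM, −0.14 (−0.39 to 0.11). Both intervals held 0. Igtp was at 35.0 and 54.6 CPM, 0.63 (0.26 to 1.03), and Irgm2 was at 12.6 and 17.1 CPM, 0.42 (−0.24 to 1.12). Tgtp1 and Tgtp2 summed were at 24.6 and 32.0 CPM, 0.37 (−0.10 to 0.86), from 78 and 71 UMIs. Over 11 alternatives Igtp ran from 0.08, with cells of several gates kept, to 0.83, and Irgm2 from −0.12 to 0.81. Irgm1 ran from −0.50 to 0.38, Ifi47 from −0.38 to −0.12, and Tgtp1 and Tgtp2 summed from 0.05 to 1.03. The makeup of the sum thus differed, and Gbp2 and Gbp5 together gave 56.4% of the 4813 GTPase UMIs in the library labelled Runx3_fl (95% Clopper-Pearson interval 55.0 to 57.8) and, with 1617 such UMIs, 46.1% in the other (43.7 to 48.6). The grid of log2 ratios shows these differences within the family.

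**Figure D2:**
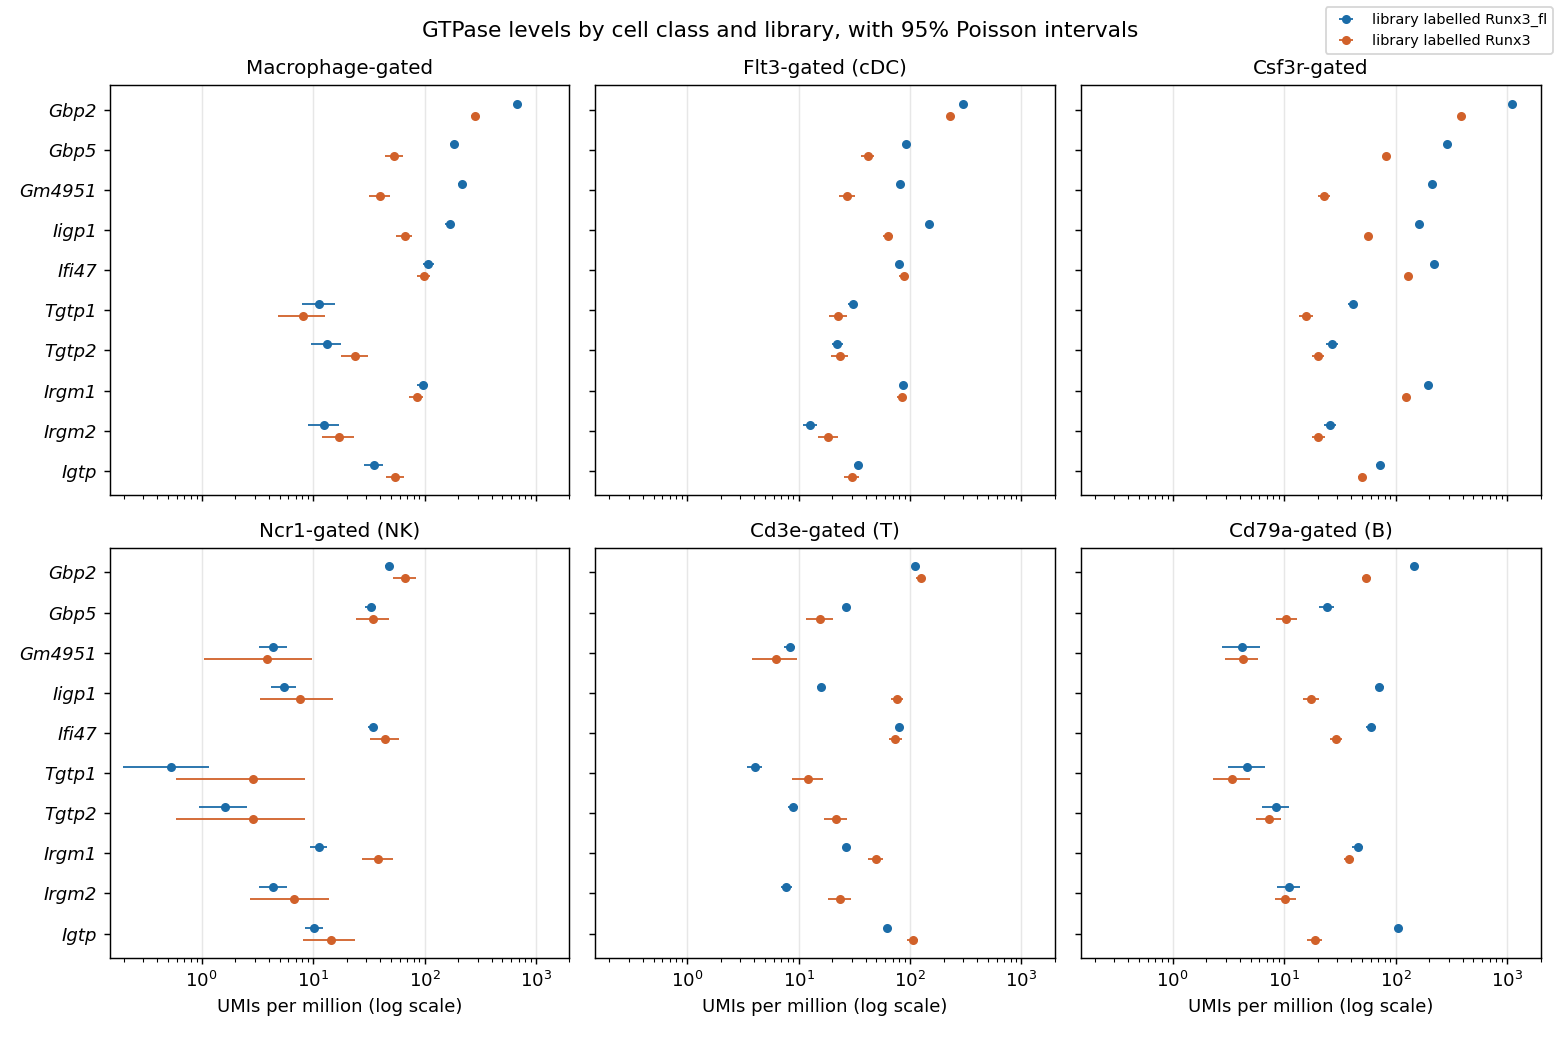
Level of each of the 10 GTPases in CPM, on a log axis, in 6 cell classes, for the library labelled Runx3_fl (blue) and the library labelled Runx3 (orange), with 95% Poisson intervals as bars. In macrophages Gbp2 (672 and 283), Gbp5 (184 and 53.2), Gm4951 (215 and 39.7) and Iigp1 (168 and 66.3) lay apart, and Ifi47 (108 and 98.3) and Irgm1 (97.0 and 84.8) lay close together.

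Shares of macrophages with a UMI of a gene were taken at an equal depth of 2000 UMIs per cell, below which 6 and 50 cells were dropped. Gm4951 was then found in 30.6% of 248 and 5.31% of 226 macrophages, against 56.3% and 14.9% before thinning. NK cells, which carried little Gm4951, had it in 0.310% of 1290 thinned cells in the library labelled Runx3_fl. Gbp2 was found in 62.9% and 31.9% of thinned macrophages, Gbp5 in 27.4% and 10.6%, and Igtp in 4.84% and 11.9%. At least 3 of the 10 genes were seen together in 30.2% of thinned macrophages of the library labelled Runx3_fl and in 12.4% of those of the library labelled Runx3. The median macrophage held 2 GTPase UMIs in the former and 1 in the latter, and 15.3% and 38.5% held none.

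Other values moved with the macrophage result, and their part in it was not tested. Median depth was 12785.5 and 6380.5 UMIs per macrophage in the libraries labelled Runx3_fl and Runx3. A Ly6c2 UMI, which marks cells closer to monocytes, was in 165 of 254 and 223 of 276 macrophages. Among macrophages with Ly6c2 the summed GTPases were at 1676 and 714 CPM, a log2 ratio of −1.23 (−1.32 to −1.14), and among those without they were at 1159 and 805 CPM, −0.52 (−0.71 to −0.34). In the latter Gm4951 was at 198 and 32.5 CPM, and Iigp1 was at 148 and 119 CPM. With both kinds of macrophage given equal weight, Iigp1 was no longer past 1 log2 unit, at −0.89. Nos2, which encodes the inducible nitric oxide synthase, was seen in 62 of 254 and 8 of 276 macrophages, and without it the summed GTPases were at 1352 and 712 CPM. The 7 NK markers summed to 228 and 14.0 CPM in macrophages, with none at 0, and the 6 T cell markers to 36.9 and 66.7 CPM, with none at 0.

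Taken undivided, Csf3r-gated cells showed the lower level in the library labelled Runx3 for all 10 genes. Their summed level was 2362 and 909 CPM, a log2 ratio of −1.38, and 5 of the 10 were past 1 log2 unit lower, where 2.50% of all genes were. Gm4951 was at 211 and 22.9 CPM, −3.14 (−3.39 to −3.01). Gbp2 was at 1110 and 388 CPM, −1.52, Gbp5 at 292 and 81.8 CPM, −1.82, and Iigp1 at 163 and 57.2 CPM, −1.50. Iigp1 was no longer past 1 unit with thinned cells, at −0.81, or as a mean of single-cell CPM, at −0.85, and Gm4951 was then at −2.08 and −2.53. Tgtp1 taken alone, at −1.34, was among the 5. Summed with Tgtp2 it was at 68.5 and 36.0 CPM, −0.91 (−1.11 to −0.75), which is not past 1 unit. The regulators were lower by less, with Irgm1 at 195 and 123 CPM, −0.66, Igtp at 72.0 and 50.5 CPM, −0.50, and Irgm2 at 25.8 and 20.3 CPM, −0.33.

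Since this gate mixed cell types, it was divided by a Csf1r UMI, a division chosen after the data were seen. The 694 and 725 cells with Csf1r, which monocytes and macrophages carry, were at 2096 and 949 CPM for the summed GTPases. Not all genes were lower there, with Igtp at a log2 ratio of 0.03 (−0.18 to 0.24) and Irgm2 at 0.23 (−0.12 to 0.60). The 684 and 723 cells without it were at 3057 and 835 CPM, a log2 ratio of −1.87 (−1.93 to −1.81), and Gbp2 was at 1539 and 347 CPM there. Neutrophil markers also differed, with the 6 summing to 5014 and 40405 CPM in the Csf3r gate, none at 0, as did the leading genes named above. The part of these differences in the result was not tested.

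In cDC, cells that present antigen to T cells, the summed level was 888 and 625 CPM, a log2 ratio of −0.51 (−0.56 to −0.45), and 3 of the 10 genes were past 1 log2 unit lower, where 1.88% of all genes were. Gm4951 was at 81.5 and 27.1 CPM, −1.55 (−1.84 to −1.34), Iigp1 at 149 and 63.4 CPM, −1.22 (−1.40 to −1.07), and Gbp5 at 92.7 and 41.7 CPM, −1.14 (−1.36 to −0.95). Gbp2 was at 298 and 227 CPM, −0.39, while Irgm1 was at 87.1 and 84.2 CPM, −0.05 (−0.20 to 0.10). Within divisions of the cDC by Xcr1, which marks cross-presenting cDC, Cd209a or Ccr7, which marks migratory cells, the summed ratio lay below 0 in all 6 groups of cells. It was −0.67 with and −0.74 without Xcr1, −0.91 with and −0.41 without Cd209a, and −0.44 with and −0.35 without Ccr7. These divisions cut the same cells. Of 910 and 455 cDC, 274 and 28 had Xcr1, 125 and 142 had Cd209a, and 616 and 194 had Ccr7. In the library labelled Runx3_fl the sum was at 992 CPM with Ccr7 and 684 without. Gbp2 was at −0.29 with Ccr7 and −0.02 (−0.18 to 0.14) without. The part of this makeup in the cDC ratios was not tested. With 10 CPM added before the log, Gbp5 was at −0.99, and with thinned cells Gm4951 was at −2.20. Markers of other classes also moved in the cDC gate, and their part was not tested. The 8 macrophage markers summed to 141 and 363 CPM, the 6 neutrophil markers to 466 and 1039, the 7 NK markers to 98.4 and 13.1 and the 6 B cell markers to 10.3 and 102, with 1 B cell marker at 0 in the library labelled Runx3_fl.

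**Figure D3:**
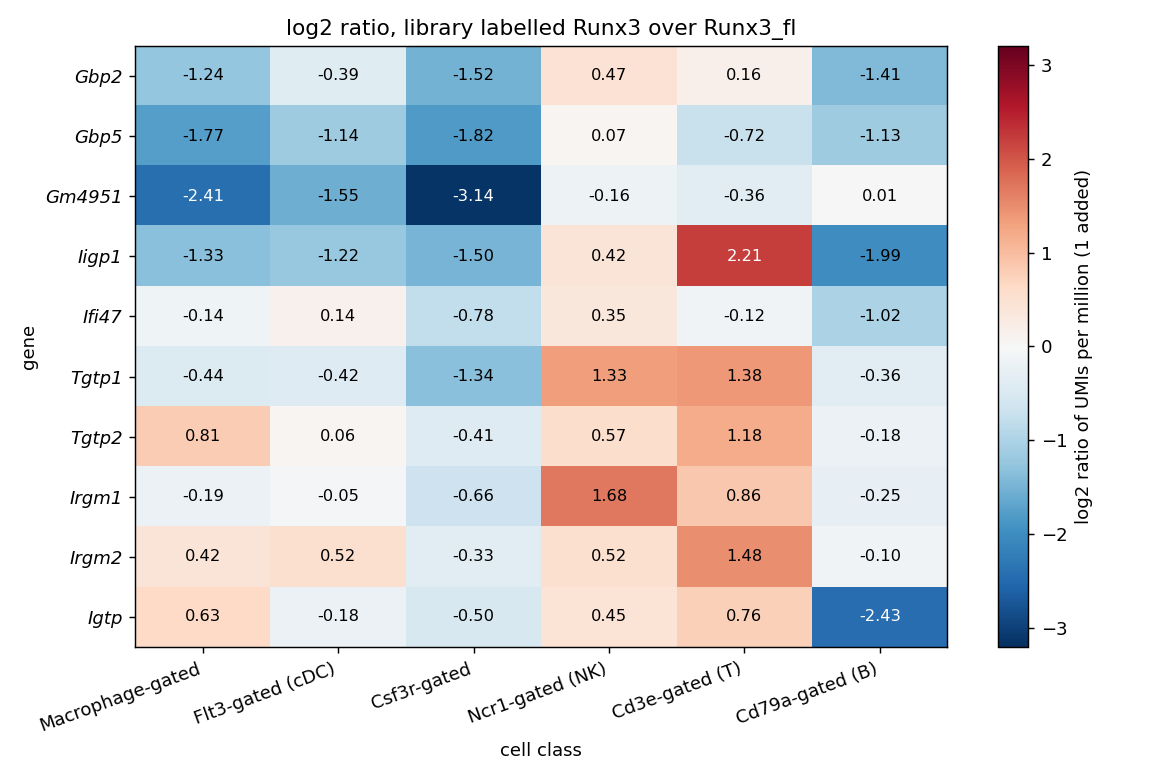
Log2 ratio of CPM, library labelled Runx3 over library labelled Runx3_fl with 1 added to each, for the 10 GTPases (rows) in 6 cell classes (columns), blue for lower and red for higher. Gm4951 was at −2.41 in macrophages and −3.14 in Csf3r-gated cells, and Iigp1 was at −1.33 in macrophages and 2.21 in T cells.

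T cells differed in the other direction. Their summed level was 352 and 510 CPM, a log2 ratio of 0.53, with no gene past 1 unit lower, where 7.26% of all genes were, and 4 of the 10 past 1 unit higher, where 13.5% of all genes were. Iigp1 was at 15.8 CPM from 645 UMIs and 76.8 CPM from 246 UMIs, 2.21 (2.06 to 2.49). Irgm2 was at 7.75 and 23.4 CPM, 1.48 (1.21 to 1.96), and Tgtp1 and Tgtp2 summed were at 13.0 and 33.7 CPM, 1.31 (1.06 to 1.67). Igtp was at 62.2 and 106 CPM, 0.76, and Irgm1 at 26.7 and 49.3 CPM, 0.86. Gbp2 was at 112 and 125 CPM, 0.16, and Gbp5 was at 26.4 and 15.6 CPM, −0.72 (−1.20 to −0.35). Among the 10 genes, all 4 past 1 unit higher were of the IRG branch, while Gm4951 and Ifi47 of the same branch were at −0.36 (−1.14 to 0.24) and −0.12 (−0.31 to 0.07). The rise was not limited to that branch outside the 10 genes. Of 13 other GTPases of these families with at least 10 UMIs in T cells, 5 were past 1 unit higher, all 5 of them GBP genes, and 1 was lower.

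The ratio of Iigp1 kept its sign in T cells with and without Cd4 or Cd8a. It was at 18.4 and 103 CPM in the 1311 and 118 cells with Cd4, 2.42 (2.17 to 2.80), and at 8.58 and 41.2 CPM in the 1120 and 75 cells with Cd8a, 2.14 (1.64 to 2.84). Markers of other classes moved with it. In T cells of the libraries labelled Runx3_fl and Runx3 the 8 macrophage markers summed to 59.8 and 219 CPM, the 6 neutrophil markers to 46.5 and 345 CPM and the 7 NK markers to 2855 and 307 CPM, with none of these at 0. Most of the NK marker sum was Gzma, at 1775 and 120 CPM, and Nkg7, at 975 and 147 CPM. Prf1, Eomes and Klra8 were also lower in the library labelled Runx3. Klrb1c was at 5.86 and 5.31 CPM and Klre1 at 8.78 and 10.6 CPM. The part of these markers in the T cell values was not tested. Over 9 alternatives the log2 ratio of Iigp1 in T cells ran from 1.35, with cells of several gates kept, to 2.34, with the library's overall profile subtracted as free RNA. With 10 CPM added before the log, Irgm2 was at 0.91 and the sum of Tgtp1 and Tgtp2 at 0.93, both no longer past 1 unit.

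**Figure D4:**
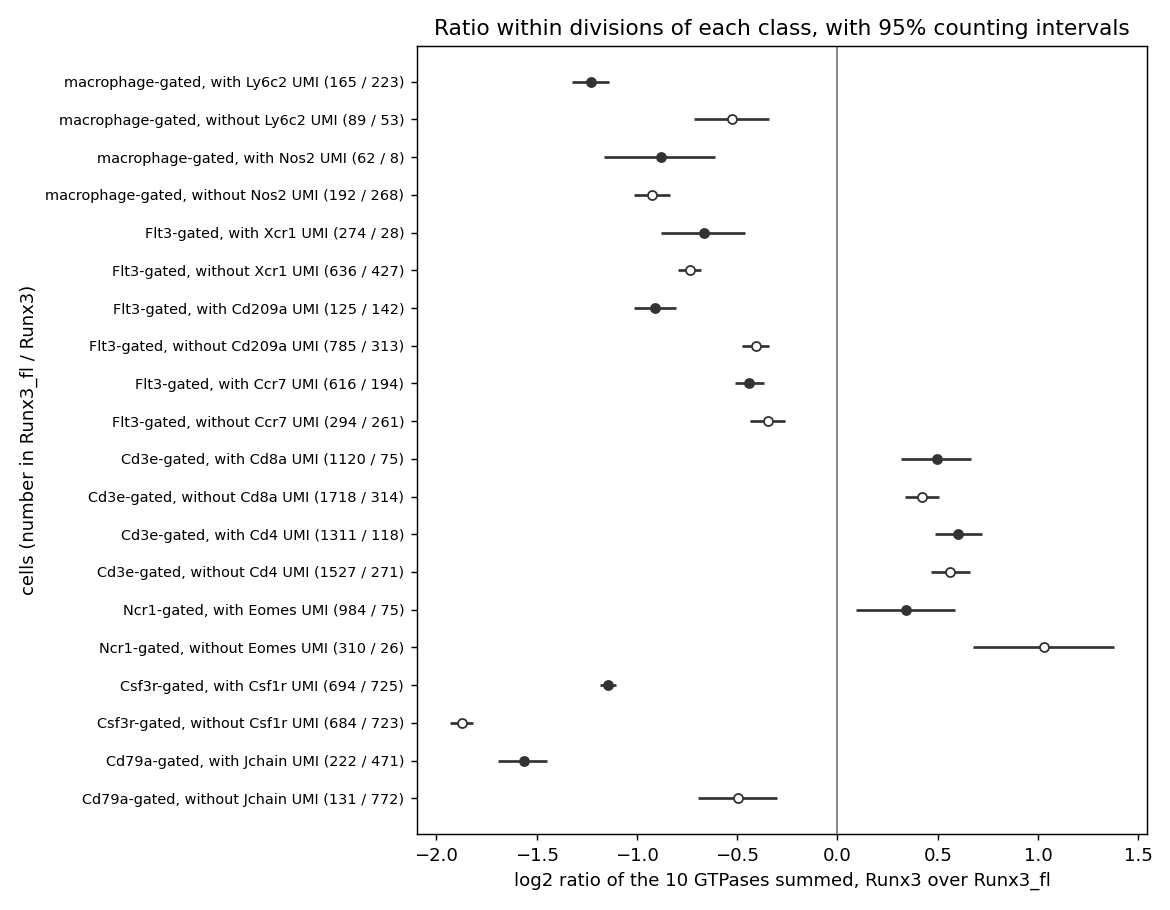
Log2 ratio of the 10 GTPases summed, library labelled Runx3 over Runx3_fl, within cells of each class with (filled) or without (open) a UMI of a dividing gene, with 95% counting intervals and the numbers of cells in brackets. All 14 groups of macrophage-gated, Flt3-gated, Csf3r-gated and Cd79a-gated cells lay below 0, and all 6 groups of Cd3e-gated and Ncr1-gated cells lay above 0.

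NK cells carried few GTPase UMIs. The summed level was 153 and 222 CPM, the lowest and the third lowest of the 12 pools, with 101 NK cells in the library labelled Runx3, and none of the 10 genes was past 1 log2 unit lower, where 5.95% of all genes were. Of the 9 genes with at least 10 UMIs, 1 was past 1 unit higher, where 7.40% of all genes were. That was Irgm1, as Tgtp1 at 1.33 had 9 UMIs, and it was at 11.3 and 38.3 CPM from 126 and 40 UMIs, 1.68 (1.22 to 2.29). It was no longer past 1 unit under 2 of 9 alternatives, at 0.96 with cells of several gates kept and 0.97 with thinned cells. Gbp2 was at 48.2 and 67.0 CPM, 0.47, and Gbp5 at 32.8 and 34.5 CPM, 0.07 (−0.46 to 0.57).

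Cd79a-gated cells were lower in the library labelled Runx3, at 483 and 194 CPM, with 5 of the 10 genes past 1 log2 unit lower, where 12.7% of all genes were. Igtp was at 106 and 18.9 CPM, −2.43 (−2.75 to −2.24), the lowest of its ratios over the 6 classes, and Iigp1 was at 71.8 and 17.4 CPM, −1.99. With cells of several gates kept, 4 of the 5 calls ended, with Iigp1 at −0.95, Gbp2 at −0.41, Ifi47 at −0.37 and Gbp5 at −0.18, while Igtp was at −1.67 and the summed ratio at −0.51. With cells thinned to 2000 UMIs, Gbp2 was at −0.90, Ifi47 at −0.50 and Gbp5 at −0.89. This class was divided by Jchain, the joining chain of secreted antibodies, after the data were seen. With a Jchain UMI, 222 and 471 cells, Igtp was at 122 and 19.1 CPM, and without one, 131 and 772 cells, it was at 13.2 and 18.7 CPM, 0.48 (−0.37 to 1.52). The 8 cDC markers summed to 112 and 516 CPM in Cd79a-gated cells, with none at 0, and the part of this in the result was not tested.

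Ifng, which encodes the inducer, was at 223 and 27.8 CPM over all kept cells. In NK cells the levels were 517 (503 to 530) and 499 CPM (457 to 544), with a log2 ratio of −0.05 (−0.18 to 0.08). In T cells they were 378 (372 to 384) and 98.0 CPM (87.5 to 109), with a log2 ratio of −1.94 (−2.11 to −1.79). The numbers of these cells also differed, with 2838 T cells and 1294 NK cells among 11885 kept cells against 389 and 101 among 8167. NK and T cells gave 19.0% and 50.7% of the 30418 Ifng UMIs in the library labelled Runx3_fl, and 28.6% and 17.2% of the 1822 in the library labelled Runx3. In T cells with Cd8a, Ifng was at 254 and 199 CPM, −0.35 (−0.61 to −0.11), and in those without it at 474 and 69.6 CPM, −2.75 (−2.99 to −2.55). Thinned to 2000 UMIs, 33.9% and 8.91% of T cells had an Ifng UMI, against 71.6% and 14.9% unthinned. Macrophages, which should lack Ifng, had it in 2.02% and 1.77% of thinned cells. By CPM it was lower in the library labelled Runx3 in all classes other than NK and T cells as well. It was at 10.1 and 3.16 CPM in macrophages, from 32 and 7 UMIs, and at 7.27 and 1.08 CPM in cDC. Csf3r-gated cells were at 19.3 and 1.95 CPM and Cd79a-gated cells at 13.1 and 9.21 CPM. The part of stray RNA in the Ifng values was not tested.

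Genes of the receptor and its pathway mostly lay within 1 log2 unit in macrophages, as did most genes. Of 10 signalling genes 1 was past 1 log2 unit lower, where 3.53% of all genes were. None was past 1 unit higher, where 15.5% of all genes were. The lower gene was Jak2, the kinase bound to Ifngr2, at 687 and 322 CPM, −1.09 (−1.22 to −0.97). Ifngr1 was at 89.8 and 119 CPM, 0.40, Ifngr2 at 53.5 and 103 CPM, 0.93, and the transcription factor Irf1 at 163 and 306 CPM, 0.90. Irf8, a factor of the monocyte lineage, was at 264 and 178 CPM, −0.57. In T cells Ifngr2 was at 3.09 and 65.5 CPM, and Irf1 was at 98.8 and 289 CPM.

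Other interferon gamma induced genes, such as those for nitric oxide synthesis and antigen presentation, also spread widely. Of 13 with at least 10 UMIs in macrophages, 6 were past 1 log2 unit lower and none higher, where 3.53% of all genes were lower and 15.5% higher. Their median was −0.86, against 0.24 for all genes. All gene lists were chosen with earlier results of these data known, so nothing is read from their counts or medians. Upp1, a uridine phosphorylase, was at 48.8 and 3.16 CPM from 155 and 7 UMIs, −3.58, and Nos2 at 72.4 and 9.02 CPM, −2.87. Tap1, the peptide transporter of antigen presentation, was at 196 and 203 CPM, 0.05, and Ciita, the master regulator of MHC class II genes, at 75.6 and 86.1 CPM, 0.19. Among 12 other GTPases of these families with enough UMIs, 2 were lower and 1 higher, with a median of −0.17, against 0.24 for all genes. Gbp4 was at 169 and 80.3 CPM, −1.07, and F830016B08Rik, an IRG gene, at 29.3 and 6.31 CPM, −2.05, while Gvin1, a very large interferon inducible GTPase, was at 27.4 and 48.7 CPM, 0.81, and 9930111J21Rik2 at 25.5 and 48.7 CPM, 0.91. Gbp11 and Gm12250 were not analysed here.

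Of 12 genes known for inducing interferon gamma or for answering its inducers, 6 were past 1 log2 unit lower and none higher in macrophages, where 3.53% of all genes were lower. Of the 6, Il18r1, Il18rap, Tbx21 and Eomes are genes of NK and T cells, and Eomes is among the NK markers, which summed to 228 and 14.0 CPM in macrophages. The part of NK cell RNA in these values was not tested. Il12b, a chain of interleukin 12, was at 135 and 17.6 CPM, −2.87 (−3.45 to −2.46), and Il18rap, a chain of the interleukin 18 receptor that NK and T cells also use, at 27.1 and 5.86 CPM, −2.03. Il18 was at 22.7 and 32.9 CPM, 0.52, and Il15 at 35.9 and 59.5 CPM, 0.71. Genes of the type I interferon response went both ways, with 3 of 12 past 1 unit lower and 4 higher, where 15.5% of all genes were higher. Rsad2 was at 765 and 225 CPM, −1.76, and Ifit1 at 96.4 and 31.6 CPM, −1.58, while Ifit3 was at 8.50 and 53.7 CPM, 2.52, and Ifit3b at 1.89 and 12.2 CPM, 2.19. In T cells 9 of these 12 were past 1 unit higher and none lower, where 13.5% of all genes were higher and 7.26% lower. None of 10 ATG genes, whose products help direct IRG and GBP proteins to vacuoles, was past 1 unit in macrophages, with Gabarap at 495 and 449 CPM, −0.14, Gabarapl2 at 65.5 and 61.3 CPM, −0.09, Atg7 at 32.4 and 58.6 CPM, 0.83, and Map1lc3a at 19.5 and 33.4 CPM, 0.74.

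Across the 12 pools of class and library the GTPases varied together to different degrees. Pearson's r of log2 levels between pairs ranged from 0.11, for Igtp and Gbp5, to 0.94, for Ifi47 and Gbp2, with a median of 0.78 over 45 pairs. The pools share their libraries and depth, so these values are a description. Of 5616 genes at 50 CPM or more in a pool, the 8 with the pattern most like the summed level were Gk (r = 0.95), Samhd1 (0.94), Riok3 (0.93), Cflar (0.92), Tapbp (0.92), Ass1 (0.92), Nampt (0.91) and Ik (0.91). Cflar encodes an inhibitor of caspase 8, Samhd1 a nucleotide hydrolase that restricts viruses, Tapbp a chaperone of peptide loading, and Nampt and Ass1 enzymes of NAD and arginine synthesis.

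The sequence before the start site was compared because ratios differed within the family. RefSeq promoters on GRCm38.p6 were matched for 8 of the 10 genes, and the 250 bases before each start were searched on both strands for the letters of a gamma activated sequence (GAS, TTCNNNGAA), of an interferon stimulated response element (ISRE, GAAA and GAAA with any 2 bases between) and of a RUNX site (ACCACA). GAS letters were in 5 of 8, against 7.02% of 32851 promoters, ISRE letters in 7 of 8, against 2.98%, and RUNX letters in 1 of 8, against 14.0%. In Igtp, Irgm2, Tgtp1 and Tgtp2 the GAS letters stood 2 bases before the ISRE letters, while Gbp5 had them apart. Gbp2 had ISRE letters and the RUNX letters, with no GAS letters. Irgm1 had ISRE letters alone and Ifi47 had none of these letters. The window of Irgm1 was annotated exon throughout, and the sequences of Irgm1 and Ifi47 are not printed. For Irgm2 and Tgtp2 the bases just after the RefSeq start were in no GENCODE transcript of the gene, so these starts differ from the annotation above. The sequences are printed 5′ to 3′ on the gene's strand, with capitals for letters of any of the 3 motifs, and end before the first annotated exon base, except that of Gbp2, which ends with its ISRE letters.
Igtp, chr11:58199306-58199555, plus strand: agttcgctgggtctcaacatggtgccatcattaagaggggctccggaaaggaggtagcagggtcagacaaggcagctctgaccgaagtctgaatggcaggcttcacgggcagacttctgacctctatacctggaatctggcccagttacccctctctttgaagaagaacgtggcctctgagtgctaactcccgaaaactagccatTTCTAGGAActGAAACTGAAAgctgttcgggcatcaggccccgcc
Irgm2, chr11:58214727-58214976, plus strand: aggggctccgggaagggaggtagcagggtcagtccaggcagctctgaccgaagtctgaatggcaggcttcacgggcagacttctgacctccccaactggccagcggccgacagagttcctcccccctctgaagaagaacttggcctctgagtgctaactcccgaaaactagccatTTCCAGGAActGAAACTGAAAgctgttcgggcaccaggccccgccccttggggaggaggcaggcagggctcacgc
Tgtp1, chr11:48992259-48992496, minus strand: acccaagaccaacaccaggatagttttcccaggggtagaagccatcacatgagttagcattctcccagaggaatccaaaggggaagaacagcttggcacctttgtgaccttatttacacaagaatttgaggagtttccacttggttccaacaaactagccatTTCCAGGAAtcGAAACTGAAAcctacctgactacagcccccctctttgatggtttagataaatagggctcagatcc
Tgtp2, chr11:49064213-49064462, minus strand: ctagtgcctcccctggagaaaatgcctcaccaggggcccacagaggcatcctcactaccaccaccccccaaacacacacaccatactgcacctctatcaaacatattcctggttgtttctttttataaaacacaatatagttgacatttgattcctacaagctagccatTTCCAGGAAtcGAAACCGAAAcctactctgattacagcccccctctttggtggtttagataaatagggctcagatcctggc
Gbp5, chr3:142496684-142496899, plus strand: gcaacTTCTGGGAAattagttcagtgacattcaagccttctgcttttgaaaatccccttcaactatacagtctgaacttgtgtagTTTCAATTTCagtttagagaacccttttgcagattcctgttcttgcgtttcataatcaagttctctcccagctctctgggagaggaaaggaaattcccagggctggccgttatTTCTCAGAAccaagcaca
Gbp2, chr3:142620413-142620613, plus strand: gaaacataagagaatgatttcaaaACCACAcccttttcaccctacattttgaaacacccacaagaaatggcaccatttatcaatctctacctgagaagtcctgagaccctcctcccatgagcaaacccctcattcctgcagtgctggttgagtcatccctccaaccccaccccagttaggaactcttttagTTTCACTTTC

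Genes with the paired letters were Igtp and Irgm2, at log2 ratios of 0.63 and 0.42 in macrophages, and Tgtp1 and Tgtp2, at 0.37 when summed. Genes without the paired letters were Gbp5 and Gbp2, at −1.77 and −1.24, and Irgm1 and Ifi47, at −0.19 and −0.14. With Tgtp1 and Tgtp2 summed, macrophage ratios were thus positive with the paired letters and negative without them. Tgtp1 taken alone was at −0.44, and the counting intervals of Irgm2, the sum, Irgm1 and Ifi47 allowed either sign. The division by sign was read off after the ratios were seen, and it did not hold in the other classes. In cDC, Igtp was at −0.18 and the sum of Tgtp1 and Tgtp2 at −0.20, while Ifi47 was at 0.14. Among genes without the paired letters, Irgm1 was at 0.86 in T cells and Gbp2 at 0.47 in NK cells. In Cd79a-gated cells Igtp was at −2.43, and in Csf3r-gated cells all 8 ratios were negative. Tgtp1 and Tgtp2 are near copies, and Igtp and Irgm2 overlap, so these genes are not independent cases. Any link between letters and ratios was not tested. A match of letters is a description of sequence and no evidence that a factor was bound, and a missing match says only that the letters are not in this window.

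**Figure D5:**
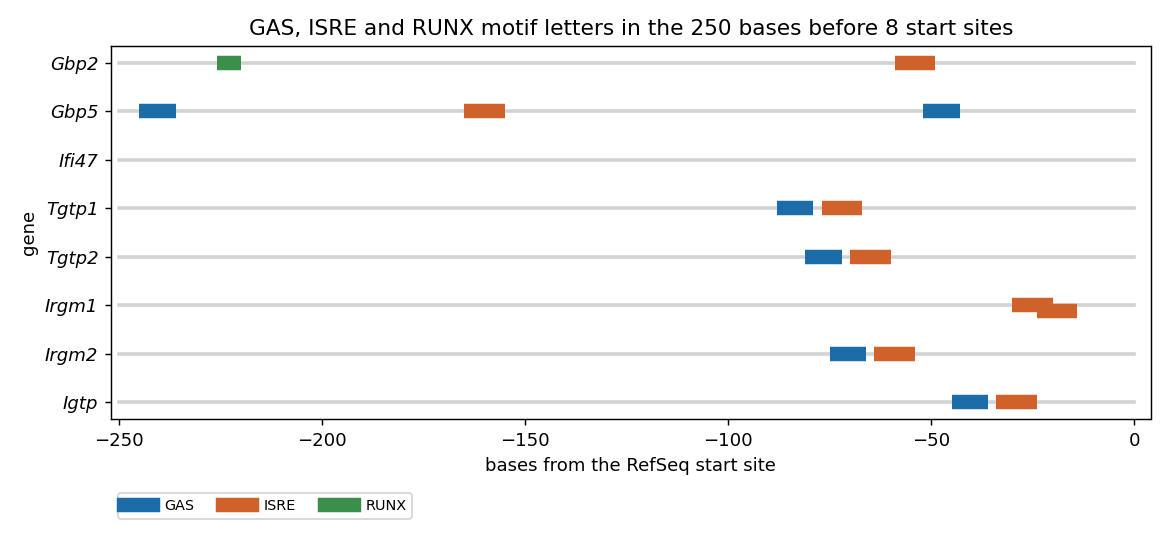
Places of GAS (blue), ISRE (orange) and RUNX (green) motif letters in the 250 bases before the RefSeq start site of 8 GTPase genes, on an axis of bases from the start. GAS and ISRE letters are side by side in Tgtp1, Tgtp2, Irgm2 and Igtp, both ISRE matches of Irgm1 overlap, and Ifi47 shows none.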

How the data were processed

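The authors deposited 1 matrix of raw UMI counts for each library, limited to barcodes called as cells, and Cell Ranger 7.1.0 is named as its source in the file headers. The submitters' processing notes name mm10 and Seurat 4, and the gene annotation they used is not given in the sources used here. Cells were kept by the study's limits, and the upper limit of 6000 genes together with the removal of cells passing 2 or more gates was the treatment of doublets. UMIs of each class were summed per library and scaled to 1000000 UMIs (CPM). Ratios added 1 CPM, and the background counted genes with at least 10 UMIs over both libraries. Intervals were 95% exact Poisson for CPM, Clopper-Pearson for shares and exact conditional binomial for ratios, the last without added CPM. Past 1 log2 unit is a rule of size and not a test. With 1 library per group no test between groups was made. The ratio step was tested on simulated counts.

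The 10 genes, gene lists, classes and rules were chosen with earlier results of these data known. Named genes were the 10 GTPases, Ifng, Ifngr1, Ifngr2, Irf1 and 1 gene not reported here, the gate and marker genes, Runx3 and Xist, the 2 highest and 2 lowest macrophage ratios of each list among genes at 10 CPM or more in either library, and the 8 genes most like the summed level over the pools. Itgam and the leading genes of the gates were named after their values were seen. Of 32285 gene IDs, 32158 were in GENCODE M21, which is on GRCm38. Promoter sequences are RefSeq's. Tools were biopython 1.88 for transcript alignment, scipy 1.17.1 for intervals, and pandas 2.3.3, numpy 2.4.6 and matplotlib 3.10.9 under Python 3.11.15. Alternatives changed the cell limits, gates, depth, added CPM, averaging, scaling and free RNA. Those on Csf3r, the divisions by Csf1r and Jchain and the sum of Tgtp1 and Tgtp2 were added after the data were seen.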

Additional observations from a re-analysis of the deposited data

Results flagged for a closer look

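Iigp1 lay on opposite sides of 0, each past 1 log2 unit, in different cell classes of the same pair of libraries. Its log2 ratio was 2.21 in T cells against −1.33 in macrophages, −1.22 in cDC, −1.50 in Csf3r-gated cells and −1.99 in Cd79a-gated cells. It was no longer past 1 unit in macrophages at −0.89 with equal Ly6c2 weights, in Csf3r-gated cells at −0.81 with thinned cells and −0.85 as a mean of single-cell CPM, and in Cd79a-gated cells at −0.95 with cells of several gates kept. Tgtp1 taken alone was at 1.38 in T cells and −1.34 in Csf3r-gated cells, but its reads cannot be told apart from those of Tgtp2 over most of the transcript. The sum of both was at 1.31 and −0.91, of which the second is not past 1 unit. The differences between classes were not tested, since each group held 1 library.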

How the results depend on the processing

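The count of 4 GTPases past 1 log2 unit lower in macrophages was the same under all alternatives run except equal weights of macrophages with and without Ly6c2, where it was 3, and the summed GTPases stayed below 0 there under all 11. The cause of the shifts below was not tested. For macrophages the summed log2 ratio was −1.20 with at most 4000 genes, −1.28 with cells thinned to 2000 UMIs, −1.19 as a mean of single-cell CPM, −1.30 with the median gene set to 0 and −0.90 with equal Ly6c2 weights. For cDC it was −0.71, −0.98, −0.64 and −0.67 under the first 4 of these and −0.71 with cells of several gates kept. For Csf3r-gated cells it was −1.27, −1.51, −1.48 and −1.71 under those 4, −1.43 without an upper limit on genes, −1.25 with cells of several gates kept and −1.47 with 2 UMIs of each gate gene. For Cd79a-gated cells it was −0.82 with thinned cells, −0.96 as a mean of single-cell CPM, −1.57 with the median gene set to 0, −1.16 without an upper limit, −0.51 with cells of several gates kept and −1.18 with 2 gate UMIs. For T cells it was 0.35 with thinned cells, 0.43 with the median gene set to 0 and 0.29 with cells of several gates kept, and for NK cells 0.07 with the last. Ifng in T cells was at −2.23 with at most 4000 genes, −2.39 with cells of several gates kept and −2.14 as a mean of single-cell CPM. Of 654 values of single genes under the alternatives, 485 moved within their counting interval, 168 beyond it with the same direction or without a call, and 1 changed direction from a ratio past 1 log2 unit. That was Tgtp1 in NK cells, which turned from 1.33, which rested on 9 UMIs, to −0.95 with thinned cells. Changes of sign from smaller ratios were not counted as such, and some occurred. Gm4951 in Cd79a-gated cells kept its sign under 2 of 9 alternatives. In NK cells, Ifi47 ran from 0.35 down to −4.94 and Iigp1 from 0.42 down to −2.50. Letting Csf3r no longer remove cells from the macrophages, chosen after seeing the data, gave −1.14 and the same 4 genes. No paired analysis was possible because each group held 1 library.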
